A study of Mus musculus with 12 samples.

Results

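A set of 10 genes that mark macrophages of the mouse heart were followed through 12 adult hearts. They were taken by symbol from the rows of the deposited count table, and all 10 of the 10 symbols had 1 row among 23457. They are the complement chains C1qa, C1qb and C1qc, the growth factor receptor Csf1r, the endocytic receptors Cd163, Mrc1 and Folr2, the lysosomal glycoprotein Cd68, the chemokine receptor Ccr2 and the lectin Lgals3. The Parkin KO group was 6 hearts of adult mice on the C57BL/6J background that carried floxed alleles and MERCreMer and were induced with tamoxifen. The noninduced group was 6 hearts of adult mice of the same background that carried the floxed alleles but no Cre, with the same time of 9 to 10 weeks after tamoxifen in their labels, which do not otherwise say whether the noninduced mice received the drug. MERCreMer is a Cre recombinase that tamoxifen brings into the nucleus. By the labels it was present in the Parkin KO group alone, so that effects of Parkin loss and of MERCreMer cannot be told apart. The promoter that drives it is not given in the labels, and the title of the series calls the knockout cardiac-specific. Polyadenylated RNA came from the ventricular apex per the protocol, while the tissue label reads whole heart.

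Parkin is a ubiquitin ligase that tags damaged mitochondria for removal. As background, the heart holds macrophages of separate origins. Resident macrophages settle before birth, renew themselves locally, clear debris and expelled mitochondria, and carry high levels of the C1q chains, Cd163, Mrc1 and Folr2. Recruited macrophages come from blood monocytes that follow CCL2 through the receptor CCR2, and galectin-3, the product of Lgals3, marks such cells and activated macrophages, although fibroblasts and other cells can make it too. Because whole tissue was sequenced, fewer macrophages and less RNA per macrophage cannot be told apart.

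Libraries held from 11610507 to 16884516 counts (exact permutation p = 0.665 between the groups), so that 1 read was worth 0.0548 to 0.0948 CPM, the count scaled to the library total. Esr1 is the mouse gene related to the receptor part of MERCreMer, so that transgene reads may be counted on it. It ran from 1553 to 4683 CPM in Parkin KO hearts, against 24.0 to 962 CPM in noninduced libraries. Noninduced replicates 1 and 3 stood at 558 and 962 CPM, and the other noninduced libraries at 24.0 to 64.9 CPM. Whether noninduced replicates 1 and 3 carried MERCreMer was not tested. Parkin KO replicates 2, 5 and 6 were male by their Y-linked reads and Xist, noninduced replicate 3 held 178 Y-linked reads beside Xist, and the other 8 libraries were female. Cardiomyocyte markers summed to 102893 to 119772 CPM in Parkin KO hearts, against 80766 to 110749 CPM in noninduced hearts.

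The C1q chains lie side by side on chromosome 4 of GRCm38 (mm10), all protein-coding and on the minus strand, C1qb from 136880129 to 136886187, C1qc from 136889804 to 136893065 and C1qa from 136895917 to 136898803. Cd68 lies on chromosome 11 from 69664213 to 69666153 and Lgals3 on chromosome 14 from 47367751 to 47386160. Mrc1 lies on chromosome 2 from 14229392 to 14332057, Cd163 on chromosome 6 from 124304656 to 124330527, Folr2 on chromosome 7 from 101839988 to 101857194 and Ccr2 on chromosome 9 from 124101950 to 124113557. The libraries keep no strand. Folr2 shares 63.1% of its exon bases with Gm10602 on the opposite strand and Csf1r shares 15.1% with Hmgxb3, so their counts may hold reads of these genes, and the other 8 share none.

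Promoters are shown for the 4 members that the results turn on for which a window was at hand, C1qb, C1qc, Cd68 and Lgals3. Capitals mark the PU box GAGGAA, searched on both strands, the core letters bound by the myeloid transcription factor PU.1. Each window is 300 bases of RefSeq sequence on GRCm38.p6, 250 before and 50 from the start of transcription, read on the strand of the gene.
C1qb, chr4:136886151-136886450, minus strand: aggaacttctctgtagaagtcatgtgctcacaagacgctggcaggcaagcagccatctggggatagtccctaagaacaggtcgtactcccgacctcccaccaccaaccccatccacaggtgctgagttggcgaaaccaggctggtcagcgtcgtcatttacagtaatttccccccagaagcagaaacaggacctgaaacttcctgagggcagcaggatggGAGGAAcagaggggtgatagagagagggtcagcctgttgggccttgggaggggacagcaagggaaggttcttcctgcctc
C1qc, chr4:136892865-136893164, minus strand: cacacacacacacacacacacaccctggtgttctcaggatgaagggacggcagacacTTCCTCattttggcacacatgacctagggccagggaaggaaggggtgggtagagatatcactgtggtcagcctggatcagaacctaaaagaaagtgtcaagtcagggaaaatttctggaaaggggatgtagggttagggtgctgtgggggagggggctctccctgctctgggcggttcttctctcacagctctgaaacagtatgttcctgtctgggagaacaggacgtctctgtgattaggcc
Cd68, chr11:69666121-69666420, minus strand: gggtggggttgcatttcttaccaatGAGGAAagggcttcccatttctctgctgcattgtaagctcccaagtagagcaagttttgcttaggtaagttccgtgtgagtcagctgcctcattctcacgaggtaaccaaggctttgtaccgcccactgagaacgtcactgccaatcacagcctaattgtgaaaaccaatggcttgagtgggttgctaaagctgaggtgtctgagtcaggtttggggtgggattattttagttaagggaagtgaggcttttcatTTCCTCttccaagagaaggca
Lgals3, chr14:47373610-47373909, plus strand: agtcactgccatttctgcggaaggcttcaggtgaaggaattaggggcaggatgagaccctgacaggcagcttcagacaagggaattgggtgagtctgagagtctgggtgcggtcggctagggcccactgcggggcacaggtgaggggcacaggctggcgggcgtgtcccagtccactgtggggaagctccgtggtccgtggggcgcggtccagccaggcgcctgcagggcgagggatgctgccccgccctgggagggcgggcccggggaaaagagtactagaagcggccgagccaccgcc
The box began at -30 in C1qb, at -193 on the reverse strand in C1qc, and at -225 and, on the reverse strand, at 30 in Cd68. The Lgals3 window held none, but it lies inside the GENCODE span of the gene given above. It thus covers an internal start, and the sequence before the outermost start of Lgals3 was not searched. Mrc1 held 3, and the windows of Cd163, Folr2 and Ccr2 held none, so that 4 of 9 windows of 8 members carried the letters, against 28.3% of 32851 promoter windows of the same length. A match describes the letters and is no evidence of binding.

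Per unit of transcript length, the C1q chains were the most abundant members and Ccr2 the least. The deposited FPKM averaged 59.2 ± 9.92 for C1qc, 57.6 ± 11.7 for C1qb and 40.02 ± 7.94 for C1qa (SD, n = 12 libraries), which placed the 3 chains between the 87.9th and the 91.8th percentile of 12999 tested genes. C1qc and C1qb were not separated, with C1qc above C1qb in 7 of 12 libraries, whereas C1qb lay above C1qa and C1qa above Cd68 in all 12. Cd68 (14.2 ± 3.11 FPKM) and Csf1r (12.5 ± 2.05 FPKM) followed, Cd68 above Csf1r in 8 libraries. Folr2 stood at 8.86 ± 1.72 FPKM, below Csf1r in all 12.

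Lgals3 averaged 4.27 ± 4.49 FPKM, Cd163 2.54 ± 0.638 FPKM and Mrc1 1.96 ± 0.49 FPKM. Lgals3 had an SD larger than its mean and exceeded Cd163 in only 5 of 12 libraries, so their order was not fixed. Cd163 lay above Mrc1 in 11 of 12. Ccr2 averaged 0.0829 ± 0.0754 FPKM, under every other member in all 12 libraries. When CPM was divided by the annotated exon length instead, the chains ran C1qb, C1qa and C1qc from high to low, and the order of the other 7 members stayed as given.

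**Figure D1:**
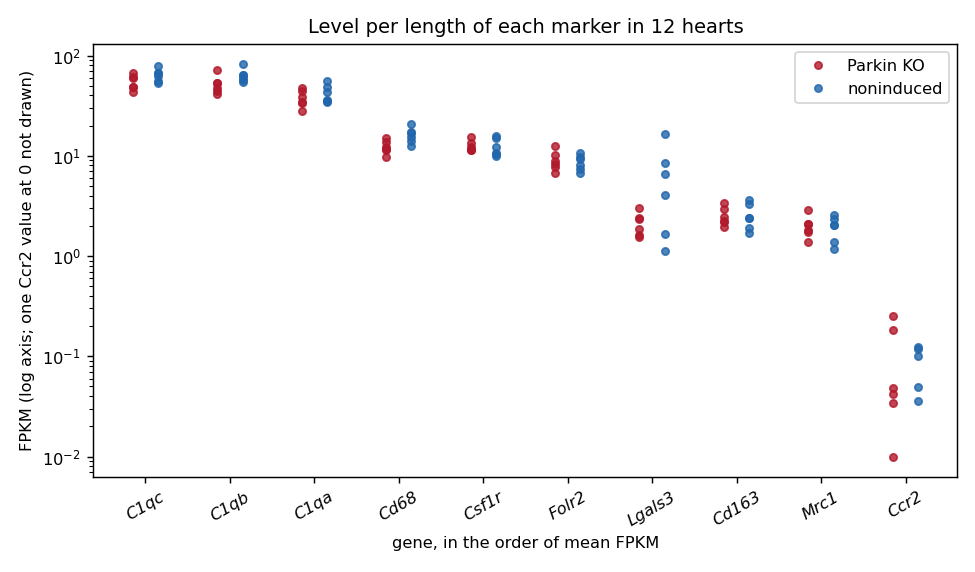
Deposited FPKM (log axis) of each marker in every library, Parkin KO left of noninduced for each gene, genes ordered by mean FPKM. The C1q chains lie highest, from 28.0 to 82.9 FPKM, Lgals3 spreads most within noninduced hearts (1.13 to 16.6 FPKM), and the Ccr2 points lie at or below 0.251 FPKM, with 1 noninduced value at 0 not drawn on the log axis.

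No member passed the comparison of Parkin KO with noninduced hearts, and none had separate groups. Cd68, Lgals3 and C1qb had the lowest p among the members and lower fitted levels in Parkin KO hearts (log2 fold changes of -0.43, -1.56 and -0.32), while Csf1r, Cd163, Mrc1 and Folr2 had fitted differences within 0.05 of 0. The counts went into the quasi-likelihood test of edgeR, p-values were adjusted by Benjamini and Hochberg over 13050 genes, and the threshold was 0.05. Of the 10 members 9 passed its low-count filter and Ccr2 did not. Over all genes 0 passed in either direction (0% lower and 0% higher), with 1483 at an unadjusted p under 0.05 and 10 called by DESeq2, none of which is a member.

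Of the 9 members tested, 6 had a log2 fold change below 0, against 48% of all genes tested, and the median was -0.18, against 0.01 over all genes. At an unadjusted p under 0.05 there were 3 members, Cd68, Lgals3 and C1qb, all lower, against 5.54% of all genes that were lower at that p and 5.82% that were higher. Groups did not overlap for 0 members, against 0.345% of all genes. The members were chosen with earlier results of these data known, so that these counts are a description.

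Cd68, a lysosomal glycoprotein found across macrophages, had a lowest, median and highest value of 7.94, 10.2 and 12.3 CPM in Parkin KO hearts, against 11.3, 13.3 and 16.3 CPM in noninduced hearts. All but 1 of the 6 Parkin KO libraries lay below every noninduced library, and the exception was replicate 5. Means were 10.2 ± 1.51 CPM in Parkin KO hearts, against 13.7 ± 2.36 CPM in noninduced hearts (SD, n = 6 each). The log2 fold change was -0.43 ± 0.131 (SE, 95% confidence interval -0.70 to -0.15), with 136 to 174 reads per Parkin KO library and 121 to 298 per noninduced library (edgeR adjusted p = 0.417). Noninduced replicates 1 and 6 were the highest 2 libraries, and 5.17% to 9.53% of counts came from mitochondrial DNA in Parkin KO libraries, against 6.65% to 16.7% in noninduced libraries. Noninduced replicates 1 and 2 had the 2 highest shares, and Cd68 stood at 16.3 CPM in replicate 1 and 11.5 CPM in replicate 2. With mitochondrial genes left out of the table the log2 fold change was -0.44.

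Csf1r, the receptor for CSF1 that macrophages need to survive, had the fitted difference closest to 0, next to that of Cd163. It ran from 42.6 through a median of 46.1 to 58.1 CPM in Parkin KO hearts, against 41.4, 44.9 and 56.7 CPM in noninduced hearts, and the groups covered nearly the same range. The log2 fold change was 0.02 ± 0.101 (SE), with an interval of -0.20 to 0.23 (edgeR adjusted p = 0.954). Its direction turned in 11 of 26 alternative settings.

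The C1q chains together form the molecule that starts the classical complement pathway, and macrophages are its main source. C1qb ran from 36.0 through 44.4 to 61.8 CPM in Parkin KO hearts, against 49.5, 55.5 and 69.0 CPM in noninduced hearts. C1qb lay below every noninduced library in 5 of 6 Parkin KO libraries, replicate 6 being the exception. The log2 fold change of C1qb was -0.32 ± 0.124 (SE, interval -0.58 to -0.05), with means of 45.9 ± 8.86 CPM in Parkin KO hearts, against 57.3 ± 7.69 CPM in noninduced hearts (SD, n = 6 each, edgeR adjusted p = 0.424).

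C1qc ran from 37.3 through 49.0 to 57.2 CPM in Parkin KO hearts, against 45.9, 58.8 and 67.5 CPM in noninduced hearts. All 6 Parkin KO values of C1qc lay under the noninduced mean of 57.3 CPM, but 3 of them lay within the noninduced range. The log2 fold change of C1qc was -0.25 ± 0.121 (SE, interval -0.51 to 0.0037, edgeR adjusted p = 0.438). C1qa ran from 26.8 through 32.9 to 42.4 CPM in Parkin KO hearts, against 34.0, 36.9 and 47.7 CPM in noninduced hearts. For C1qa 3 of 6 Parkin KO libraries lay below every noninduced library, with a log2 fold change of -0.18 ± 0.121 (SE, interval -0.44 to 0.073, edgeR adjusted p = 0.533).

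The share of each chain in the C1q total was compared next. C1qa made up 26.2 ± 1.98% of the summed FPKM of the 3 chains in Parkin KO and 24.9 ± 2.46% in noninduced hearts, C1qb 35.9 ± 2.69% in Parkin KO and 37.4 ± 0.952% in noninduced hearts, and C1qc 37.99 ± 2.43% in Parkin KO and 37.7 ± 2.3% in noninduced hearts (SD, n = 6 each). The differences in C1qa and C1qc were smaller than the SD of either group, and that in C1qb was smaller than the SD of the Parkin KO group but larger than that of the noninduced group. Summed over the chains, the level was 128 ± 20.6 CPM in Parkin KO hearts, against 153 ± 19.1 CPM in noninduced hearts.

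The endocytic receptors of resident macrophages had nearly equal means in both groups. Cd163, which takes up haptoglobin-bound haemoglobin, ran from 8.62 through 10.1 to 15.5 CPM in Parkin KO hearts, against 8.34, 10.2 and 14.95 CPM in noninduced hearts. Mrc1, the mannose receptor, ran from 7.37 through 10.5 to 14.8 CPM in Parkin KO hearts, against 7.01, 10.7 and 13.1 CPM in noninduced hearts. Folr2, a folate receptor, ran from 6.08 through 7.97 to 11.1 CPM in Parkin KO hearts, against 6.73, 7.95 and 9.10 CPM in noninduced hearts. In each of the 3, the ranges of the groups overlapped, and the highest library was a Parkin KO one.

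Fitted log2 fold changes were -0.02 ± 0.174 (SE, edgeR adjusted p = 0.974) for Cd163, 0.04 ± 0.172 (adjusted p = 0.930) for Mrc1 and 0.04 ± 0.138 (adjusted p = 0.912) for Folr2. The 95% intervals were -0.39 to 0.35 for Cd163, -0.33 to 0.41 for Mrc1 and -0.25 to 0.34 for Folr2. Differences up to those bounds in either direction are therefore not excluded. The bounds are no limit of detection, as Lgals3 at -1.56 did not pass the threshold either. Set against Cd68 in the same library, Folr2 had an FPKM ratio of 0.738 ± 0.112 in Parkin KO and 0.543 ± 0.0914 in noninduced hearts (SD, n = 6 each). The ranges of this ratio overlapped, at 0.579 to 0.911 in Parkin KO and 0.428 to 0.672 in noninduced hearts. The ratio to Cd68 averaged 0.209 in Parkin KO and 0.163 in noninduced hearts for Cd163, and 0.163 and 0.121 for Mrc1. For C1qa it was 3.09 and 2.66, and for Lgals3 it went the other way, at 0.180 and 0.420. Cd68, the gene divided by, had a log2 fold change of -0.43, so these ratios show no change of the other gene by themselves.

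Ccr2, the receptor by which monocytes enter tissue, was close to the limit of detection. Parkin KO libraries held 2, 0, 2, 2, 9 and 10 reads for replicates 1 to 6, and noninduced libraries held 0, 2, 2, 7, 6 and 6 reads. Sums were 25 reads in Parkin KO and 23 reads in noninduced hearts, and the highest values came from Parkin KO replicates 5 and 6 and noninduced replicate 4. In the 2 libraries with 0 reads, a count of 0 allows up to 0.219 CPM in Parkin KO replicate 2 and 0.266 CPM in noninduced replicate 1, by counting error alone. Fitted without the low-count filter, Ccr2 had a log2 fold change of 0.11 ± 0.667 (SE, edgeR adjusted p = 0.966).

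Several other monocyte genes were as scarce. Of 18 genes listed for recruited monocytes and activated macrophages, 10 could be tested, and those too low included Ly6c2, Plac8, Il1b, Ccr1, Arg1, Spp1 and Chi3l3. Ly6c2, which marks inflammatory monocytes, had 29 reads over the Parkin KO group and 27 over the noninduced group, and Chi3l3 had 1 read in Parkin KO and 0 in noninduced libraries. Spp1, osteopontin, had 1 to 6 reads in Parkin KO and 1 to 31 in noninduced libraries, with the highest count in noninduced replicate 5.

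Lgals3 had the widest spread of the 9 members tested. Parkin KO libraries stood at 3.67, 3.07, 2.94, 2.28, 1.91 and 1.98 CPM for replicates 1 to 6, and noninduced libraries at 1.597, 11.4, 2.07, 4.88, 19.2 and 7.51 CPM. Noninduced replicates 2, 4, 5 and 6 lay above every Parkin KO library, while noninduced replicates 1 and 3 lay among or below the Parkin KO values, so the groups overlapped. Means were 2.64 ± 0.696 CPM in Parkin KO hearts, against 7.78 ± 6.68 CPM in noninduced hearts (SD, n = 6 each). The coefficient of variation was 26.4% in Parkin KO and 85.9% in noninduced hearts, against medians of 17.1% in Parkin KO and 19.9% in noninduced hearts for 1907 genes of mean CPM within 1.5-fold of it. Its log2 fold change was -1.56 ± 0.484 (SE, interval -2.60 to -0.53, edgeR adjusted p = 0.417).

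Atrial genes moved with Lgals3 in part. Myl7, a myosin light chain of atrial muscle, ran from 1.73 to 40.7 CPM in Parkin KO libraries, while it was at 760, 109 and 1107 CPM in noninduced replicates 2, 4 and 5 and at 0.842 to 16.4 CPM in noninduced replicates 1, 3 and 6. With group means taken off, Pearson r of Myl7 with Lgals3 was 0.65 (Spearman rho 0.57, n = 12 libraries), given as a description. It was 0.72 (rho 0.59) for Sln and 0.70 (0.66) for Myl4, also atrial. Of genes of other cells, r was 0.68 (rho 0.87) for the matrix protein gene Thbs1 and 0.43 (0.48) for the collagen gene Col1a1. It was 0.68 (0.73) for Msln and 0.70 (0.59) for Upk3b, both mesothelial. Within Parkin KO hearts r was 0.41 for Myl7, 0.54 for Sln and 0.43 for Myl4. There it was 0.86 for Thbs1, -0.21 for Col1a1, 0.0038 for Msln and -0.47 for Upk3b. The 2 libraries of highest Myl7 were the 2 of highest Lgals3, but noninduced replicate 6 came next in Lgals3 with 1.37 CPM of Myl7. All 6 listed atrial genes were lower in Parkin KO hearts at an unadjusted p under 0.05 in edgeR, against 5.54% of all genes, and 0 passed. None was at that p in limma-voom or without noninduced replicates 2 and 5, and without replicates 2, 4 and 5 there were 2 of 5 below 0 with a median of 1.30. Their summed level ran from 158 to 1547 CPM in Parkin KO hearts, against 121 to 5987 CPM in noninduced hearts. Without noninduced replicates 2 and 5 the log2 fold change of Lgals3 was -0.63 (edgeR adjusted p = 0.666), and without replicates 2, 4 and 5, an alternative added after the values were seen, it was -0.55 (adjusted p = 0.579). Without noninduced replicates 1 and 3, whose Esr1 lay between that of the other noninduced libraries and that of the Parkin KO libraries, it was -2.04 (adjusted p = 0.234). Noninduced replicates 2 and 5 held the 2 highest Lgals3 values of their group, and replicates 1 and 3 the 2 lowest. Leaving them out therefore moves the fitted difference whatever its cause. The part of atrial tissue in the Lgals3 values was not tested.

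**Figure D2:**
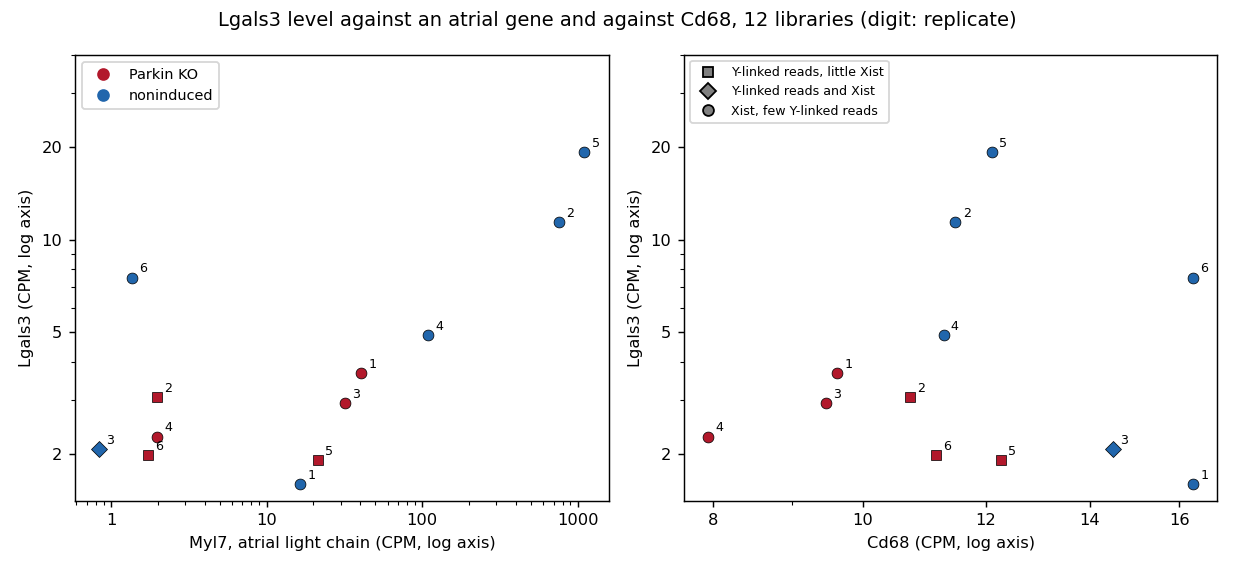
Lgals3 (CPM, log axis) against Myl7 on the left and Cd68 on the right, both in CPM on log axes, 1 point per library with its replicate number, red for Parkin KO and blue for noninduced, with squares for male libraries, a diamond for the library with Y-linked reads and Xist, and circles for female ones. Noninduced replicates 5 and 2 are highest in both Lgals3 and Myl7, noninduced replicate 6 has 7.51 CPM of Lgals3 with 1.37 CPM of Myl7, and noninduced replicates 1 and 3 pair high Cd68 with low Lgals3.

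Of the 5 genes most like Lgals3 across libraries, none was on a macrophage list. Among 12436 genes with a mean of at least 1 CPM outside the members, and with group means taken off log2 CPM, the highest Pearson r with Lgals3 over 12 libraries was found for Pam (0.95), Grin2c (0.92), Npr3 (0.92), Rhod (0.91) and Itih4 (0.91). Pam encodes an enzyme that amidates peptides and is abundant in atrial muscle, and Npr3 is the natriuretic peptide clearance receptor. Noninduced replicate 6 held 760 CPM of Pam and 16.1 CPM of Npr3 beside 1.37 CPM of Myl7. Whether these genes follow atrial tissue was not tested. Within the Parkin KO group alone, r with Lgals3 was 0.98 for Grin2c and 0.42 to 0.51 for the other 4. These genes were picked for a high r and all points share the same 12 libraries, so the values are a description. The r of Lgals3 with Cd68 was -0.47 (Spearman rho -0.43), which was -0.57 without the 2 libraries farthest from the median of Cd68 and -0.27 without the 2 farthest from that of Lgals3.

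**Figure D3:**
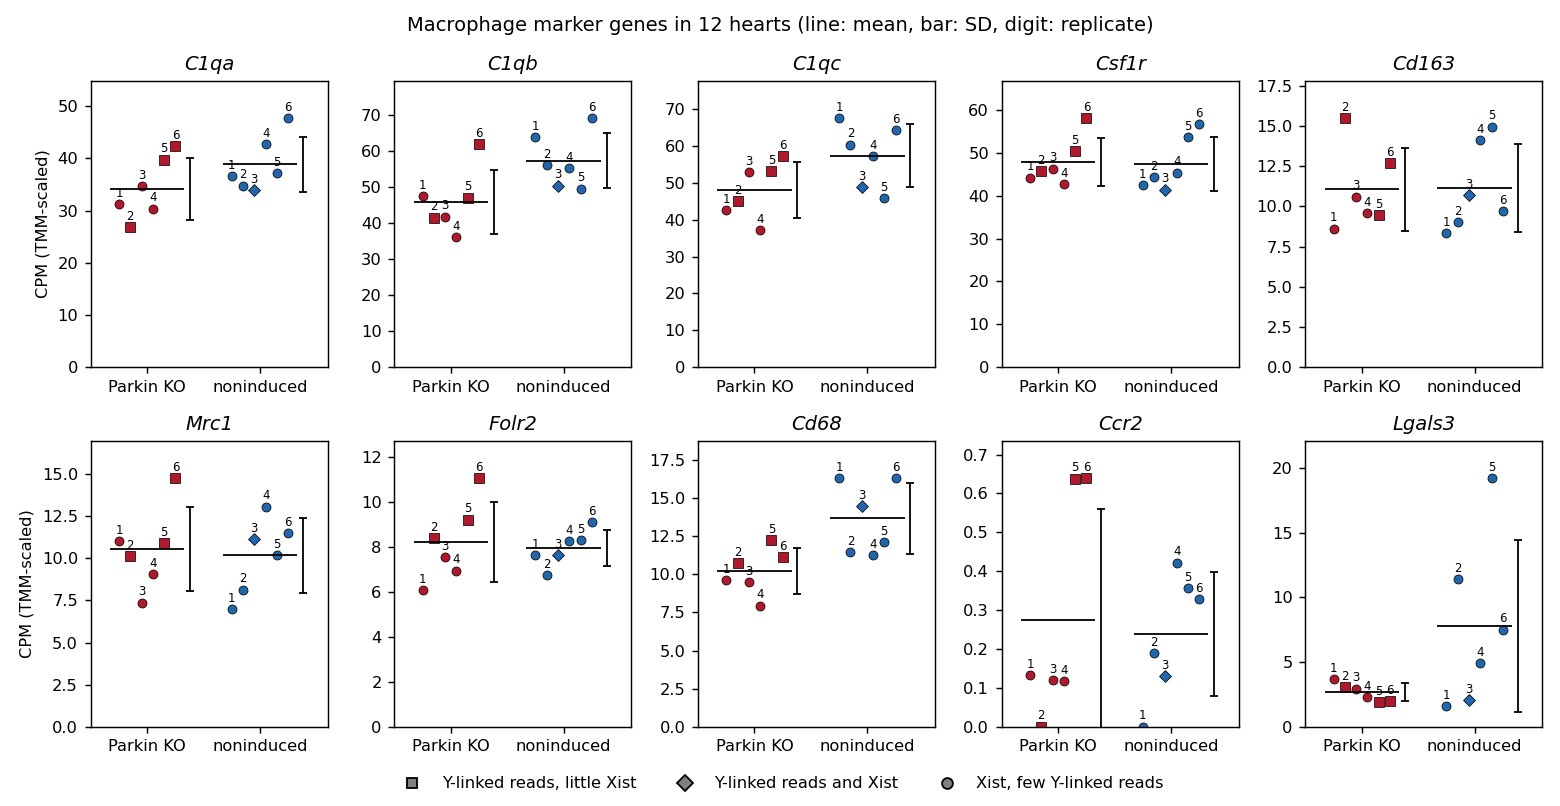
CPM of the 10 markers in every library, Parkin KO left and noninduced right, with replicate numbers, the group mean as a line and the SD as a bar; squares are male libraries, the diamond holds both Y-linked reads and Xist, circles are female. Parkin KO replicate 6 is the highest Parkin KO library for C1qa, C1qb, C1qc, Csf1r, Mrc1 and Folr2, and the groups overlap for each marker.

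Sex was unevenly spread between the groups, with 3 male libraries of 6 in Parkin KO hearts, against 0 in noninduced hearts, where replicate 3 held both Y-linked reads and Xist. Among Parkin KO hearts, Folr2 ran from 8.39 to 11.1 CPM in the 3 male libraries and from 6.08 to 7.55 CPM in the 3 female ones, and Cd68 ran from 10.7 to 12.3 CPM in the male and from 7.94 to 9.62 CPM in the female libraries. Male and female Parkin KO libraries did not overlap in these 2 of the 9 tested members, against 8.82% of all genes, so that no relation of sex to the members is read from this count. Within that group the sexes were compared without a test, since 3 against 3 libraries cannot reach an exact two-sided permutation p below 0.1.

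Among the 8 female libraries, 3 Parkin KO and 5 noninduced, all 9 tested members had a log2 fold change below 0, against 50.4% of 13321 genes tested, and 5 were lower at an unadjusted p under 0.05, against 2.57%. The 5 were Cd68, C1qa, C1qb, C1qc and Lgals3. The median over the members was -0.31 in this fit. None passed over all genes (edgeR adjusted p = 0.844 for Cd68, the C1q chains, Folr2 and Lgals3), where 0% of all genes did. Leaving out the male Parkin KO replicate 6 alone also gave 9 members below 0, against 51.3% of all genes. In that fit 5 members were lower at an unadjusted p under 0.05, against 3.96%. The counts in female libraries thus cannot be told apart from the absence of that 1 library.

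In female hearts C1qb averaged 41.7 ± 5.72 CPM in Parkin KO libraries, against 58.7 ± 7.70 CPM in noninduced libraries (SD, n = 3 and 5). C1qb had a log2 fold change of -0.49 ± 0.143 (SE) there. Cd68 averaged 9.01 ± 0.927 CPM in Parkin KO hearts, against 13.5 ± 2.60 CPM in noninduced libraries, at -0.58 ± 0.175. The receptors Cd163, Mrc1 and Folr2, which were near 0 over all libraries, stood at -0.23, -0.14 and -0.23, with intervals that all included 0. With a sex term in the fit of all 12 libraries, 9 members were below 0, against 50% of all genes. The lowest edgeR adjusted p of a member there was 0.697. No noninduced library was called male, so the group difference in that fit rested on the female Parkin KO libraries. It is nearly the same comparison as the female fit, and no separate support.

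**Figure D4:**
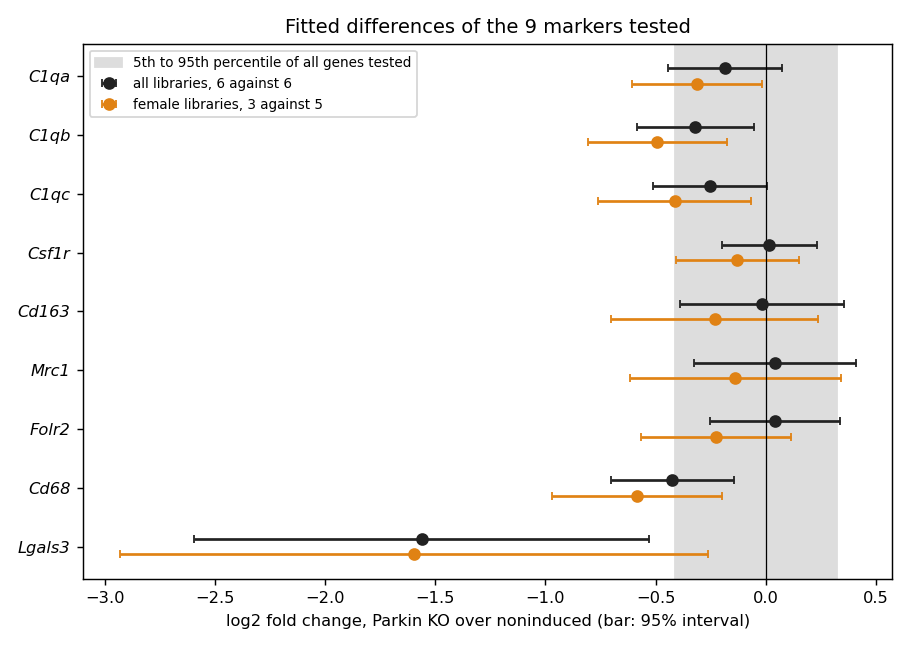
Log2 fold change, Parkin KO over noninduced, of the 9 markers tested, with 95% confidence intervals, for all libraries (black) and for female libraries (orange). The grey band spans the 5th to 95th percentile of all genes in the fit of all libraries, -0.41 to 0.32. Lgals3 and, in the fit of all libraries narrowly, Cd68 lie beyond this band in both fits. C1qb and, narrowly, C1qc do so in the female fit only. The orange points lie left of the black ones for every marker.

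Within groups some members varied together across libraries. With group means taken off log2 CPM, C1qb and C1qc had a Pearson r of 0.79 (Spearman rho 0.87), C1qa and C1qb 0.70 (0.64) and C1qa and C1qc 0.61 (0.68) over 12 libraries. Csf1r and Folr2 were as close, with r of 0.78 (rho 0.76). Cd163 was closest to Folr2 (r 0.47) and Mrc1 (0.45) and had negative r with C1qb (-0.19), C1qc (-0.24) and Cd68 (-0.20). Lgals3 had r between -0.47 and 0.41 with the other 8. All these values share the same 12 libraries and their scaling factors, and are a description.

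Several pairs rested on few libraries. Without the 2 libraries farthest from the median of the first gene, r was 0.77 for C1qb and C1qc but 0.34 for C1qa and C1qb. For Csf1r and the mean of the C1q chains, r was 0.94 within Parkin KO hearts and 0.32 within noninduced hearts, and for Cd163 with that mean it was 0.07 within Parkin KO and -0.48 within noninduced hearts. Whether these differ between the groups was not tested.

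**Figure D5:**
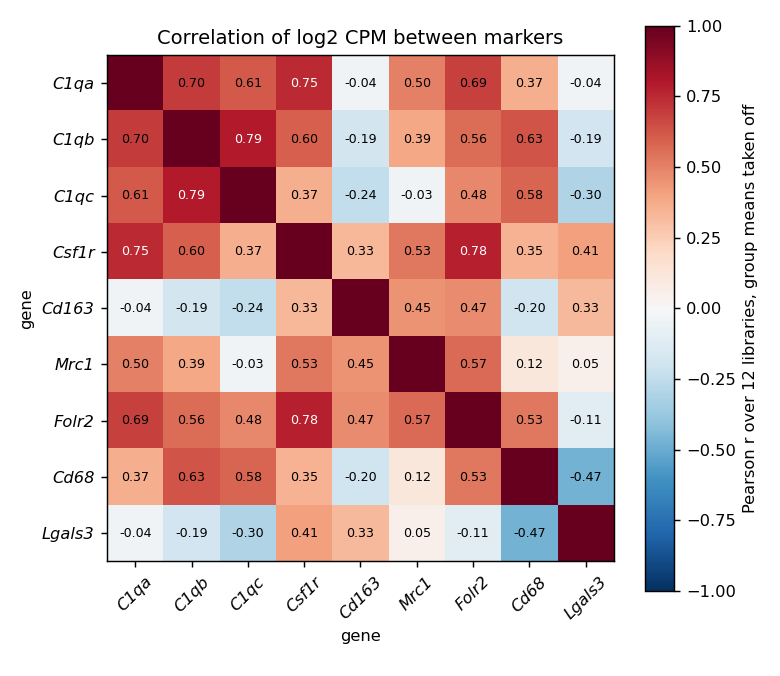
Pearson r of log2 CPM between each pair of the 9 markers over 12 libraries after the mean of each group was taken off, red for positive and blue for negative values. C1qb with C1qc (0.79), Csf1r with Folr2 (0.78) and Csf1r with C1qa (0.75) are highest, and the Lgals3 row is near 0 or negative except for Csf1r (0.41) and Cd163 (0.33).

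The gene whose pattern was most like that of the C1q chains was Sfpi1, an older symbol of Spi1, which encodes PU.1. Its r with the mean of the C1q chains was 0.91 (Spearman rho 0.90), the highest of 12436 genes, 0.86 without the 2 libraries farthest from the median, and 0.98 in Parkin KO and 0.80 in noninduced hearts. Nfam1 (0.87), Lcp2 (0.87), Laptm5 (0.87) and Cotl1 (0.87) came next. Laptm5 and Lcp2 are active in white blood cells at large. The genes were picked for a high r over the same 12 libraries, so these values are a description. Whether PU.1 acts on the C1q chains was not tested. Sfpi1 averaged 4.36 CPM in Parkin KO hearts, against 5.29 CPM in noninduced hearts, with a log2 fold change of -0.27 ± 0.200 (SE, edgeR adjusted p = 0.573).

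Of other markers of resident macrophages, 12 of 17 tested had a log2 fold change below 0, against 48% of all genes, and 0 passed over all genes. Their median was -0.12, and 3 were lower and 1 higher at an unadjusted p under 0.05, against 5.54% and 5.82% of all genes. Timd4, a receptor for phosphatidylserine on resident macrophages, had 1.67, 1.90, 1.68, 0.935, 1.49 and 1.98 CPM in Parkin KO replicates 1 to 6, against 5.41, 2.46, 2.07, 2.23, 3.38 and 2.36 CPM in noninduced replicates 1 to 6. It was the 1 gene of the list whose groups did not overlap, at 16 to 31 reads in Parkin KO and 26 to 61 reads in noninduced libraries, where 0.345% of all genes did not. The log2 fold change of Timd4 was -0.88 ± 0.258 (SE, edgeR adjusted p = 0.417). Lyve1, a hyaluronan receptor of resident macrophages and lymphatic vessels, ran from 12.4 to 20.8 CPM in Parkin KO hearts, against 18.6 to 29.5 CPM in noninduced hearts, with a log2 fold change of -0.70 (95% confidence interval -1.02 to -0.38, edgeR adjusted p = 0.417), and DESeq2 called it (adjusted p = 0.0322). Cbr2, a carbonyl reductase, was at -0.29 ± 0.121 and the transporter Slco2b1 was at 0.41 ± 0.131 (SE, edgeR adjusted p = 0.424 and 0.417).

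Genes shared by macrophages and other myeloid cells were below 0 in 13 of 16 tested, against 48% of all genes, with a median of -0.08. Without Parkin KO replicate 6 there were 15, against 51.3% of all genes, with a median of -0.30. Without noninduced replicate 6 there were 9, against 48.7% of all genes, with a median of -0.04. Csf2ra, a subunit of the GM-CSF receptor, was at -0.39 ± 0.144 and Ptprc, the pan-leukocyte phosphatase CD45, at -0.36 ± 0.158 (SE, edgeR adjusted p = 0.424 for both). Ptprc stood at 3.19 ± 0.653 CPM in Parkin KO hearts, against 4.10 ± 0.597 CPM in noninduced hearts (SD, n = 6 each). Of recruited and activated macrophage genes, 7 of 10 tested were below 0, against 48% of all genes, with a median of -0.05. Without noninduced replicate 6 there were 6 of 10, against 48.7% of all genes, and the median was -0.01. In the fit of all libraries 2 were lower at an unadjusted p under 0.05, against 5.54% of all genes. They were the matrix proteoglycan Vcan (-0.81 ± 0.325) and the integrin Itgax (-0.81 ± 0.362), both also made by other cells. Without noninduced replicate 6, at 36.8 CPM, Vcan was at -0.47. Genes of antigen presentation were below 0 in 6 of 9 tested, against 48% of all genes, and none was at an unadjusted p under 0.05. Cd74 was at -0.19 ± 0.322 and H2-DMa at -0.09 ± 0.395 (SE). This list turned with single libraries. Without noninduced replicate 4 there was 1 of 9 below 0 (median 0.38, Cd74 at 0.08), against 49.9% of all genes. Without Parkin KO replicate 6 there were 8 of 9 (median -0.48), against 51.3% of all genes.

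Partners of the members were listed apart. Of 14 complement genes tested that act with C1q, 11 were below 0 with a median of -0.07, against 48% of all genes, but without noninduced replicates 2 and 5 there were 6 and the median was 0.05. C5ar1, the receptor for the C5a fragment, averaged 5.90 ± 1.12 CPM in Parkin KO hearts, against 8.64 ± 1.33 CPM in noninduced hearts (SD, n = 6 each), at -0.55 ± 0.141 (SE), and the chaperone Calr was at -0.18 ± 0.0763 (edgeR adjusted p = 0.417 and 0.424). Of 17 ligands and signal partners tested, 12 were below 0 with a median of -0.11, against 48% of all genes, and 4 were lower and 2 higher at an unadjusted p under 0.05, against 5.54% and 5.82% of all genes. Lgals9, another galectin, was at -0.65 ± 0.197 and Lgals3bp, which binds galectin-3, at -0.39 ± 0.125. The endocytic adaptor Dab2 was at -0.52 ± 0.134 and the iron exporter Slc40a1 at 0.55 ± 0.228 (SE, edgeR adjusted p = 0.417 to 0.424 for these 4). Without noninduced replicate 1 the value of Lgals9 was -0.46.

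Ccl2, the ligand of Ccr2, ran from 1.38 to 2.496 CPM in Parkin KO hearts, against 2.17 to 3.41 CPM in noninduced hearts, a gene picked with its values in view (log2 fold change -0.44 ± 0.182, SE, edgeR adjusted p = 0.424).

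Markers of other cells were counted beside these. Fibroblast genes were below 0 in 9 of 13 tested (median -0.22), endothelial genes in 8 of 13 (-0.02), mesothelial genes in 5 of 5 (-0.63) and lymphocyte genes in 4 of 4 (-0.27), against 48% of all genes. Single libraries carried several of these counts. Without noninduced replicate 5 there were 2 of 5 mesothelial genes below 0 (median 0.09), and without noninduced replicate 6 there were 7 of 13 fibroblast genes (-0.01) and 2 of 4 lymphocyte genes (-0.19). Of cardiomyocyte genes 1 of 11 was below 0, against 48% of all genes, and the other 10 were above 0 (median 0.13). Immediate-early genes, which cells switch on within minutes of a stimulus, were below 0 in 12 of 12 (median -1.22), with 8 at an unadjusted p under 0.05, against 5.54% of all genes that were lower at that p. None of them passed in edgeR, and DESeq2 called Egr3, an immediate-early transcription factor (adjusted p = 0.0153). With a sex term, 10 of the 12 immediate-early genes were below 0 (median -0.86), against 50% of all genes. In that fit 2 were lower at an unadjusted p under 0.05, against 3.01% of all genes. In female libraries 11 of 12 were below 0 (median -0.75), against 50.4% of all genes, with 2 lower at that p, against 2.57%. Without noninduced replicates 1 and 3 there were 4 lower at that p, against 4.83%.

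Examples from these lists by smallest p were Thbs1 (-1.30 ± 0.346, SE) and Sparc (-0.47 ± 0.147) of fibroblasts, Wt1 (-0.63 ± 0.239) of mesothelium and Cd4 (-0.76 ± 0.240), which T cells and some myeloid cells carry. Myl3 (0.33 ± 0.120) and Pln (0.30 ± 0.111) of cardiomyocytes had the opposite sign. Dpep1, on the fibroblast list, was at 1.03 ± 0.331. None passed (edgeR adjusted p = 0.417 to 0.424). Dpep1 stood at 90.6, 106 and 142 CPM in the male Parkin KO replicates 2, 5 and 6. It was at 35.5, 59.6 and 37.8 CPM in the female Parkin KO replicates 1, 3 and 4, and at 16.3 to 50.7 CPM in noninduced hearts. In the fit of female libraries its log2 fold change was 0.30. Of endothelial genes Vwf was at -0.35 ± 0.186 and Erg at -0.24 ± 0.125 (SE, edgeR adjusted p = 0.451 and 0.456), with Vwf at -0.22 without noninduced replicate 5 and Erg at -0.11 without noninduced replicate 1. The atrial genes Dkk3, Bmp10, Sln and Myl4 stood between -5.39 and -2.88 and the immediate-early genes Egr3, Fosb, Nr4a3 and Egr1 between -2.71 and -0.69 (edgeR adjusted p = 0.417 for all 8). Of red blood cell genes Alas2 was at 0.12 ± 0.240 and Beta-s, a beta globin, at -0.08 ± 0.222 (SE). Of neutrophil genes only Cxcr2 could be tested, while S100a8 had 0 reads in Parkin KO and 2 in noninduced libraries. Cxcr2 was at -0.13 ± 0.107 (SE, adjusted p = 0.605). Adipocyte genes were all too low to be tested. They summed to 0.213 to 2.34 CPM in Parkin KO hearts (median 0.493), against 0.110 to 9.20 CPM in noninduced hearts (median 0.685). The part of these cell types in the marker values was not tested.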

How the data were processed

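Values were read from 2 deposited tables with 12 columns each. The first holds counts, whole reads per gene symbol as the authors deposited them, and the second holds FPKM values as deposited by the authors. Build mm10, TopHat2 2.0.10 with Bowtie2, Cufflinks 2.1 and HTSeq are named in the submitters' processing notes. The sources used here give neither the annotation nor the counting mode. The targeted transcript is not reported here. Groups and replicate numbers came from the sample titles, and columns named wt were taken as noninduced by their numbers, being the only controls. Nothing in the labels says more of how the hearts were obtained, so p-values measure the spread between these samples. No 2 libraries of a group agreed within sampling noise (chi-square per degree of freedom at least 11.9).

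The tests on counts ran in edgeR 4.0.16 under R 4.3.3 (TMM scaling, filterByExpr, glmQLFit and glmQLFTest, two-sided, group term alone). CPM uses TMM-scaled library sizes. The standard error is the estimate over the square root of its F statistic, so intervals are approximate. Levels between genes were compared as FPKM. Correlations used log2(CPM + 0.5). Limma 3.58.1 and DESeq2 1.42.0 served as alternatives, limma on log2(FPKM + 0.1) or log2(FPKM + 1) for genes of mean FPKM of at least 0.5. On data simulated for the Parkin KO against noninduced comparison (13050 genes), 85.4% of log2 fold changes of size 1 and 99.2% of size 2 were recovered. Simulated counts were drawn for each gene on its own, without differences that many genes of a library share, such as those of sex or atrial genes. These shares are therefore no measure of what could be found in the real libraries. A library was called male with over 100 Y-linked reads and under 10 CPM of Xist. Positions come from GENCODE for GRCm38, the assembly mm10 names. Limits given for a count of 0 cover counting error only, while the intervals of log2 fold changes rest on the spread between libraries.

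The members, lists and alternatives were chosen with earlier results of these data known. All members were named, together with the up to 4 genes of smallest p per list at an unadjusted p under 0.05, otherwise the 2 of smallest p, and the 5 most alike genes by r. Of the listed genes 4 had no row, and 6 were matched through an alias or older symbol.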

Additional observations from a re-analysis of the deposited data

How the results depend on the processing

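Over 26 alternative settings, each of 9 members was recomputed (234 values). No member passed in any, with a smallest adjusted p of 0.167 (Cd68, DESeq2). Directions of C1qa, C1qb, C1qc, Cd68 and Lgals3 held in all 26, from -0.31 to -0.13, -0.49 to -0.27, -0.41 to -0.20, -0.64 to -0.35 and -2.04 to -0.55. The other 4 members turned in 33 values, and the cause was not tested. Csf1r was at -0.0022 with DESeq2 size factors in edgeR, -0.0026 without mitochondrial genes, -0.00064 in DESeq2, -0.094 with a sex term, -0.13 in female libraries and -0.078 without noninduced replicates 1 and 3. Mrc1 was at -0.16, -0.14 and -0.046 in the last 3, and -0.028 without noninduced replicates 2 and 5. Folr2 was at -0.21, -0.23 and -0.00076 in the same 3, and -0.0022 without noninduced replicates 2, 4 and 5. Cd163 was at 0.013 and 0.0046 on log2(FPKM + 0.1) and log2(FPKM + 1), 0.040 without noninduced replicates 2 and 5, and 0.19 without 2, 4 and 5.

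With single libraries left out in turn, values spanned -0.055 to 0.065 for Csf1r, -0.14 to 0.076 for Cd163, -0.088 to 0.12 for Mrc1 and -0.071 to 0.11 for Folr2, the lowest value without Parkin KO replicate 6 for all but Cd163. Members below 0 numbered from 5 to 9, with 9 without Parkin KO replicate 6, and their median from -0.26 to -0.13. Genes at an unadjusted p under 0.05 numbered from 932 without noninduced replicate 2 to 2131 without noninduced replicate 4, with 944 without Parkin KO replicate 6 and 972 without noninduced replicate 1. They were 886 with a sex term, 628 in female libraries and 946 without noninduced replicates 2 and 5. Genes past the threshold were 0 in every leave-one-out fit, 10 in DESeq2 and 1 without noninduced replicates 1 and 3. Calls at an unadjusted p split 723 lower to 760 higher in the reported fit, 879 to 638 with DESeq2 size factors and 888 to 614 without mitochondrial genes.

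With the replicate number as a block, 0 genes passed, 1700 were at an unadjusted p under 0.05, 6 members were below 0 and Lgals3 was at -1.20. Deviations of same-numbered libraries correlated from -0.11 to 0.18, so the number does not pair them. Depth limits Ccr2, at 0 to 10 reads per library.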
